A study of Mus musculus with 12 samples.

Results

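The genes described here encode the proteins of the mitochondrial ribosome, and they were followed through 4 lists of H2A.Z peaks from mouse nucleus accumbens, part of the ventral striatum and of the brain's reward circuitry. A gene was counted as a member when its symbol began with Mrpl or Mrps followed by a number and when a peak assigned to it had its middle within 1000 bp of the transcription start site (TSS). The rule found 69 member genes among 14993 genes with such a promoter peak, and 190 member peaks among 59069 peaks. RefSeq lists 78 genes with a name of this form, so 9 of them had no promoter peak under their own name. The 12 chromatin immunoprecipitation samples form 4 conditions of 3, each named after a first and a second exposure: SS is saline followed by saline, SC is saline followed by cocaine (labelled acute), CS is cocaine followed by saline (labelled withdrawal) and CC is cocaine followed by cocaine (labelled challenge). The labels state no dose, interval, strain, age or sex for these mice. Each condition is represented by 1 deposited list with no values per sample, so no spread between samples, no test and no p-value can be given. Intervals below are 95% exact binomial (Clopper-Pearson) intervals that cover the counting of genes or peaks.

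Mitochondria translate the few proteins of their own genome on a dedicated ribosome, whose protein subunits are all encoded in the nucleus and imported. Some subunits descend from bacterial ribosomal proteins and others were added in the mitochondrial lineage. These genes are expressed in nearly every cell type, and neurons rely on the products of mitochondrial translation for oxidative phosphorylation. The histone variant H2A.Z replaces ordinary H2A in the nucleosomes flanking active start sites, typically at promoters rich in CpG.

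The CS and CC lists stand apart from the SS and SC lists as a whole. SS and SC held 24655 and 23170 peaks with median widths of 734 and 727 bp, while CS and CC held 6417 and 4827 peaks with median widths of 110 and 107 bp. A −log10 q of at least 5 was reached by 97.7% of SS peaks and 97.9% of SC peaks, against 17.8% in CS and 19.6% in CC. Every difference of CS or CC from SS or SC described below is therefore also a difference between these 2 kinds of list, and treatment and list quality cannot be told apart. Of 11 striatal neuron markers, 10 had a promoter peak in SS and 8 in SC, and 0 had one in CS or CC. Of 14 glial and vascular markers, 4 had one in SS, 3 in SC and 0 in CS or CC. Of all SS promoter genes, 28.8% also had one in CS and 22.7% in CC. For those with SS peaks of 655 to 904 bp, these shares were 21.1% and 16.2%. The median SS width was 757.5 bp for the striatal markers and 896 bp for the glial and vascular ones.

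A total of 6 promoters are printed to show the DNA at these start sites, which the SS and SC peaks overlap. They are 3 of members with a promoter peak in all 4 lists, and 3 of members with one in SS and SC only. Each is the first RefSeq window of the gene (assembly GRCm38.p6, the mm10 build) from 250 bp before to 50 bp after the gene's start, written 5′ to 3′ on the strand of the gene. Capitals mark matches, on either strand, to the ETS motif CCGGAAG, the NRF1 motif GCATGCGC, the YY1 motif AAGATGG, the CCAAT box CCAAT, the SP1 motif GGGCGG and the TATA box TATAAA, and adjacent or overlapping matches run together.
Mrpl48: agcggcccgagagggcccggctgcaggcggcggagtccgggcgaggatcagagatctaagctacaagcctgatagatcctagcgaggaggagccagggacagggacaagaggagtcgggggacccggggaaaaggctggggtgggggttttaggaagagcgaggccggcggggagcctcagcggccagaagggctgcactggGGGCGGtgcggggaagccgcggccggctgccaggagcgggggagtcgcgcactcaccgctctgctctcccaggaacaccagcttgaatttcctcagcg
Mrpl57: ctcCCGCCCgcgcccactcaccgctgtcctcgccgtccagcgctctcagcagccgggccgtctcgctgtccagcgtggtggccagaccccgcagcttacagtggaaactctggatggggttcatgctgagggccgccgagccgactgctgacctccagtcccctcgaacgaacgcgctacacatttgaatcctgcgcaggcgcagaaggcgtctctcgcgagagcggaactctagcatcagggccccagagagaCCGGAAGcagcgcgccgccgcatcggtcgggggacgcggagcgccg
Mrpl39: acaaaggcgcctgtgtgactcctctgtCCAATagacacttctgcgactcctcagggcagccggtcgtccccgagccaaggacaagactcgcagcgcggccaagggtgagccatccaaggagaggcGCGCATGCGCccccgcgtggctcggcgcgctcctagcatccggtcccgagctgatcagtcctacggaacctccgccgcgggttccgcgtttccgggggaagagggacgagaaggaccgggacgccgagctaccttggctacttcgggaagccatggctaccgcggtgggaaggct
Mrps24: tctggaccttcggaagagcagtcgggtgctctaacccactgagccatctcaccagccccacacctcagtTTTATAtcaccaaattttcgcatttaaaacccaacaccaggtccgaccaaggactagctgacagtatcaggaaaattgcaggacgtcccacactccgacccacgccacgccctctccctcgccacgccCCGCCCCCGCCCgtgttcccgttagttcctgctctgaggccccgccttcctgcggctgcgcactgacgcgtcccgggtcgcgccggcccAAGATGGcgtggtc
Mrps30: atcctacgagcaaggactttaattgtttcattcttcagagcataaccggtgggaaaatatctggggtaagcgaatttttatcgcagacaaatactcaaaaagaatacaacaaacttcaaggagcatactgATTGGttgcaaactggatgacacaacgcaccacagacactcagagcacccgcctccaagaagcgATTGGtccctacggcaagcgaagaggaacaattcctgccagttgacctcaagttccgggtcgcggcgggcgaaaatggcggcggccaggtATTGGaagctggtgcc
Mrpl21: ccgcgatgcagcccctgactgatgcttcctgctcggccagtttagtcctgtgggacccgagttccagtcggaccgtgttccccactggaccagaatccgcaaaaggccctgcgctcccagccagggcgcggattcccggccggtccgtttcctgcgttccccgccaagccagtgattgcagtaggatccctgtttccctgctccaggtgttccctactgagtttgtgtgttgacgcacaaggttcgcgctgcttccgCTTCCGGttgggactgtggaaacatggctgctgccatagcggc
The windows lie at chr7:100608252-100608551 (minus strand) for Mrpl48, chr14:57825989-57826288 (plus strand) for Mrpl57, chr16:84735195-84735494 (minus strand) for Mrpl39, chr11:5707652-5707951 (minus strand) for Mrps24, chr13:118387203-118387502 (minus strand) for Mrps30 and chr19:3282792-3283091 (plus strand) for Mrpl21. The ETS match begins 4 bp past the start of Mrpl57 and 7 bp past the start of Mrpl21, where it lies on the other strand. Mrpl39 carries 2 NRF1 matches, 1 per strand, that share most of their bases 125 bp before the start. Mrps24 carries a YY1 match 36 bp past its start, and Mrps30 carries 3 CCAAT boxes on the other strand. The window of Mrpl48 holds 1 SP1 match. The CS and CC peaks of Mrpl48, Mrpl57 and Mrpl39 lie outside the printed windows, those of Mrpl39 upstream and those of Mrpl57 downstream. A match is a run of letters, and binding of the factor was not measured.

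By name, 57 of the 78 family genes had a promoter peak in SS (73.1%), beside 53.4% of 21900 protein-coding genes. In SC 64 did (82.1%), beside 50.9%, in CS 26 (33.3%), beside 17.2%, and in CC 16 (20.5%), beside 13.5%. Of the 57 SS members, 54 (94.7%, 85.4 to 98.9%) also had one in SC, beside 88.2% of all SS promoter genes. In CS, 24 of the 57 had one (42.1%, 29.1 to 55.9%), beside 28.8% of all SS promoter genes. In CC, 15 of the 57 had one (26.3%, 15.5 to 39.7%), beside 22.7%. The interval for CS lay just above the share over all genes, and the interval for CC contained it. From the 64 SC members, 24 (37.5%, 25.7 to 50.5%) also had a peak in CS, beside 29.4% of all SC promoter genes, and 15 (23.4%, 13.8 to 35.7%) had one in CC, beside 23.3%. Both of these intervals contained the share over all genes. Of the 26 CS members, 12 (46.2%, 26.6 to 66.6%) also had a CC peak, beside 41.2% of all CS promoter genes. Read from the other side, 54 of 64 SC members (84.4%, 73.1 to 92.2%) were named in SS, beside 92.6% of all SC promoter genes. Of the 26 CS members, 24 (92.3%, 74.9 to 99.1%) were named in SS, beside 90.6%, and the same number in SC, beside 88.1%. Of the 16 CC members, 15 (93.8%, 69.8 to 99.8%) were named in SS, beside 90.9%, and the same number in SC, beside 88.8%, while 12 (75%, 47.6 to 92.7%) were named in CS, beside 52.4%. With peaks of −log10 q of at least 5 alone, 8 members remained counted in CS and 5 in CC.

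The members fell into 8 patterns of presence. A peak in SS and SC and in neither cocaine-first list was the most frequent, with 26 genes, followed by SS, SC and CS with 13 and all 4 lists with 11. Another 4 genes, Mrpl9, Mrps14, Mrps28 and Mrps33, had a peak in SS, SC and CC and none in CS. The name appeared in SC alone for 10 genes, in SS alone for 3, in CS alone for Mrps27, and in CS and CC without SS or SC for Mrpl13. The same patterns were not counted over all genes. Of all SS promoter genes, 88.2% were also in SC, 28.8% in CS and 22.7% in CC. The order of the patterns is therefore not read as particular to these genes.

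**Figure D1:**
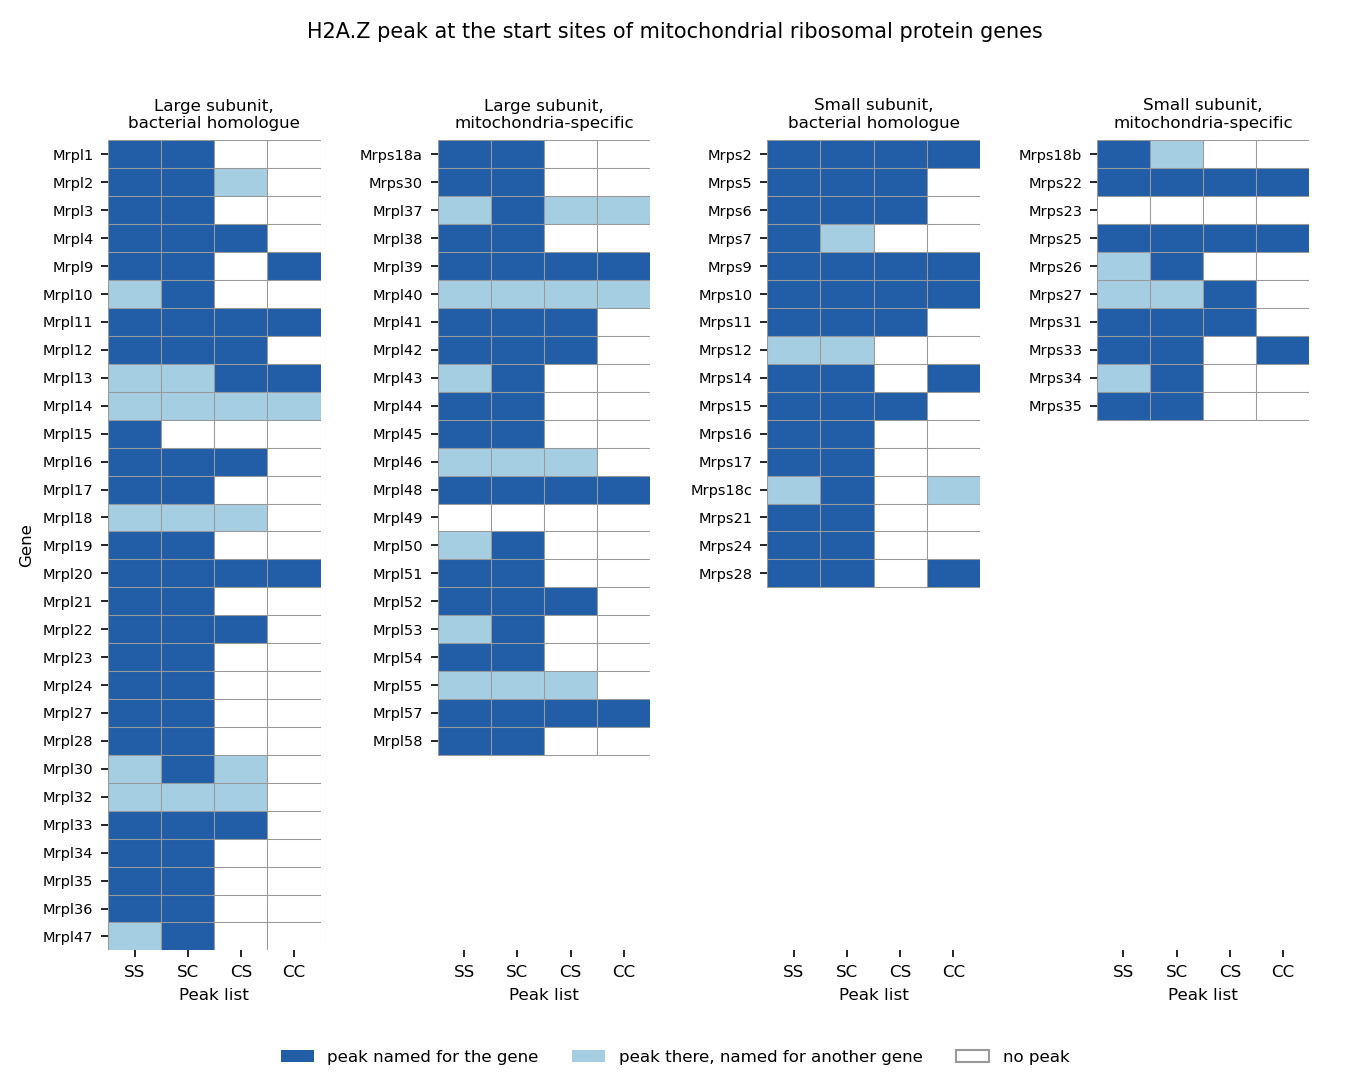
Presence of an H2A.Z peak with its middle within 1000 bp of the start, for 77 genes of the family (rows, grouped by subunit and ancestry; Mrps36 is left out) in each of the 4 lists (columns). Dark cells are peaks named for the gene, pale cells are peaks there that carry another gene's name, and white cells hold no peak: the SS and SC columns are filled for nearly every gene, and the CS and CC columns for fewer.

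Because each peak carries 1 gene name, a promoter shared by a pair of opposite genes can be counted under either. Start sites were therefore also read without names, for all 78 family genes, counting any peak with its middle within 1000 bp of a RefSeq start. The 9 genes without a RefSeq window took the starts of the peaks assigned to them, so a mark in at least 1 list was fixed in advance for them. Genes with several starts (6 of the family) counted at any of them. Among these were Mrpl13, Mrpl19 and Mrpl38, whose starts all came from their own peaks. Read this way, 76 of 78 start sites had a peak in SS (97.4%, 91.0 to 99.7%), beside 59.4% of 17492 protein-coding genes. In SC the count was 75 (96.2%, 89.2 to 99.2%), beside 57% of protein-coding genes. It was 35 in CS (44.9%, 33.6 to 56.6%), beside 20.4%, and 20 in CC (25.6%, 16.4 to 36.8%), beside 15.8%. All 4 intervals lay above the share over protein-coding genes. For the 69 family genes with a RefSeq window, the counts were 67 in SS, 67 in SC, 33 in CS and just 18 in CC.

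All 75 start sites marked in SC were also marked in SS, beside 97.4% of all genes marked in SC, and 75 of the 76 marked in SS (98.7%, 92.9 to 99.97%) were marked in SC, beside 93.6%. The start site marked in SS and not in SC was that of Mrpl15, a large-subunit protein of bacterial ancestry, whose SS peak was 1107 bp wide with a fold enrichment of 6.68. Mrpl15 has no RefSeq window, so its start was taken from that SS peak and its mark in SS was fixed in advance. With RefSeq windows alone, all 67 start sites marked in SS were also marked in SC. Of the 76 start sites marked in SS, 35 (46.1%, 34.5 to 57.9%) were also marked in CS, beside 34.1% of all genes marked in SS, and 20 (26.3%, 16.9 to 37.7%) in CC, beside 26.5%. The interval for CS lay just above the share over all genes, and that for CC contained it. With RefSeq windows alone, 33 of 67 (49.3%, 36.8 to 61.8%) were also marked in CS and 18 (26.9%, 16.8 to 39.1%) in CC. A total of 15 start sites were marked in all 4 lists: the 11 found by name, and those of Mrpl13, Mrpl14, Mrpl37 and Mrpl40. Mrpl49 and Mrps23 had no peak near their start in any list.

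Each of the 10 names found in SC and not in SS belonged to a promoter that an SS peak of another name overlapped. The SS peak carried the name Lrrc46 at Mrpl10, Mitd1 at Mrpl30, Cyb5rl at Mrpl37, Twnk at Mrpl43, Ndufb5 at Mrpl47, Zfp189 at Mrpl50, Ccdc142os at Mrpl53, Helq at Mrps18c, 4930473A02Rik at Mrps26 and Eme2 at Mrps34. Twnk encodes the mitochondrial DNA helicase and Ndufb5 a subunit of respiratory complex I. In the opposite direction, the SS peak of Mrps7 (1171 bp, fold enrichment 10.9) was matched in SC by a peak of 1045 bp named Gga3 with a fold enrichment of 11.1, and that of Mrps18b by a peak named Ppp1r10. The CS peak of Mrps27 lay within SS and SC peaks named Ptcd2, and the CS and CC peaks of Mrpl13 lay within an SS peak named Mtbp, while 1 of its 3 CC peaks ran past the edge of the SC peak of that name. Of the 15 members not named in both SS and SC, 14 thus sat on a promoter that was marked in both.

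Among the 9 family genes without a peak of their own name, 7 had one under a neighbour's name. Mrpl40 shared its start region with Hira, a histone chaperone gene, in all 4 lists: the Hira peak was 1506 bp wide in SS, 1439 bp in SC, 147 bp in CS and 113 bp in CC. Mrpl14 likewise shared peaks named Tmem63b, of 1621, 1249, 111 and 89 bp. Mrpl18 (under Tcp1), Mrpl32 (under Psma2), Mrpl46 (under Mrps11) and Mrpl55 (under 2610507I01Rik) were marked in SS, SC and CS. Mrps12, a protein of the decoding centre, was marked in SS and SC under Sars2, the mitochondrial seryl-tRNA synthetase.

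Such opposite pairs were common in the family. A start on the opposite strand lay within 500 bp of 22 of the 69 family genes with a RefSeq start (31.9%, 21.2 to 44.2%), against 1472 of 17492 protein-coding genes (8.42%). One pair joined members of the family, Mrpl46 and Mrps11, whose starts lay 42 bp apart. Other short intervals were 32 bp between Mrpl21 and Ighmbp2, 48 bp between Mrpl27 and Eme1, and 66 bp between Mrpl30 and Mitd1, and the starts of Mrpl48 and Rab6a overlapped by 36 bp. Among family start sites marked in SS, 13 of 21 with such a partner were also marked in CS (61.9%, 38.4 to 81.9%), and 20 of 46 without one (43.5%, 28.9 to 58.9%). The corresponding shares over all genes were 46.7% and 32.2%. In CC the shares were 28.6% with a partner and 26.1% without, against 33.7% and 25.4% over all genes.

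By subunit and ancestry, the 26 large-subunit members with bacterial homologues had 22 genes with a peak in SS, 24 in SC, 8 in CS and just 4 in CC. The 18 large-subunit members specific to mitochondria, which here include Mrps18a and Mrps30 despite their names, had 14, 18, 6 and 3. The 15 small-subunit members with bacterial homologues had 14, 14, 7 and 5, and the 9 specific to mitochondria had 6, 7, 4 and 3. Of the SS members in each class, 7 of 22, 6 of 14, 7 of 14 and 3 of 6 also had a CS peak, beside 28.8% of all SS promoter genes. For CC these counts were 3 of 22, 3 of 14, 5 of 14 and 3 of 6, beside 22.7% of all SS promoter genes. Mrps36, which keeps its ribosomal name but is known as a component of the α-ketoglutarate dehydrogenase complex, had a peak in all 4 lists. The counts per class are too small for their intervals to separate the classes.

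The 11 members with a promoter peak in all 4 lists came from every class. Mrpl11 and Mrpl20 are large-subunit proteins with bacterial homologues, and Mrpl39, Mrpl48 and Mrpl57 are large-subunit proteins specific to mitochondria. Mrps2, Mrps9 and Mrps10 belong to the bacterial core of the small subunit, and Mrps22 and Mrps25 are small-subunit proteins specific to mitochondria. At Mrps10 (chromosome 17, mm10) the SS peak ran from 47368148 to 47369474, the SC peak from 47368192 to 47369500, the CS peak from 47368447 to 47368576 and the CC peak from 47368429 to 47368747. The broad pair thus spanned the start, and both narrow peaks lay upstream of it, with middles 376 bp (CS) and 299 bp (CC) before it. Mrps10 had the strongest member peak in CC, at a fold enrichment of 6.94. At Mrps22 the CS peak (98601818 to 98601985 on chromosome 9) and the CC peak (98601788 to 98601973) shared 155 bp, with middles 241 and 220 bp upstream of the start. At Mrpl20 the CS peak of 216 bp lay wholly within the CC peak of 350 bp, the widest member peak of that list.

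Member peaks changed in width with the list. The strongest peak of each member had a median width of 1012 bp in SS (range 341 to 1764 bp), 1049.5 bp in SC (340 to 1451 bp), 93 bp in CS (69 to 341 bp) and 134 bp in CC (67 to 350 bp). The medians over all promoter genes were 1005, 942.5, 112 and 109 bp. The narrowest SS peaks reached the width of the widest CC peaks, at 341 bp for Mrpl2 in SS and 350 bp for Mrpl20 in CC. The widest SS peaks were those of Mrpl41 (1764 bp), Mrpl51 (1645 bp), Mrps6 (1481 bp), Mrps30 (1334 bp) and Mrpl39 (1329 bp). The narrowest were those of Mrpl2 (341 bp), Mrpl34 (344 bp), Mrpl1 (390 bp), Mrpl17 (433 bp) and Mrpl24 (458 bp).

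**Figure D2:**
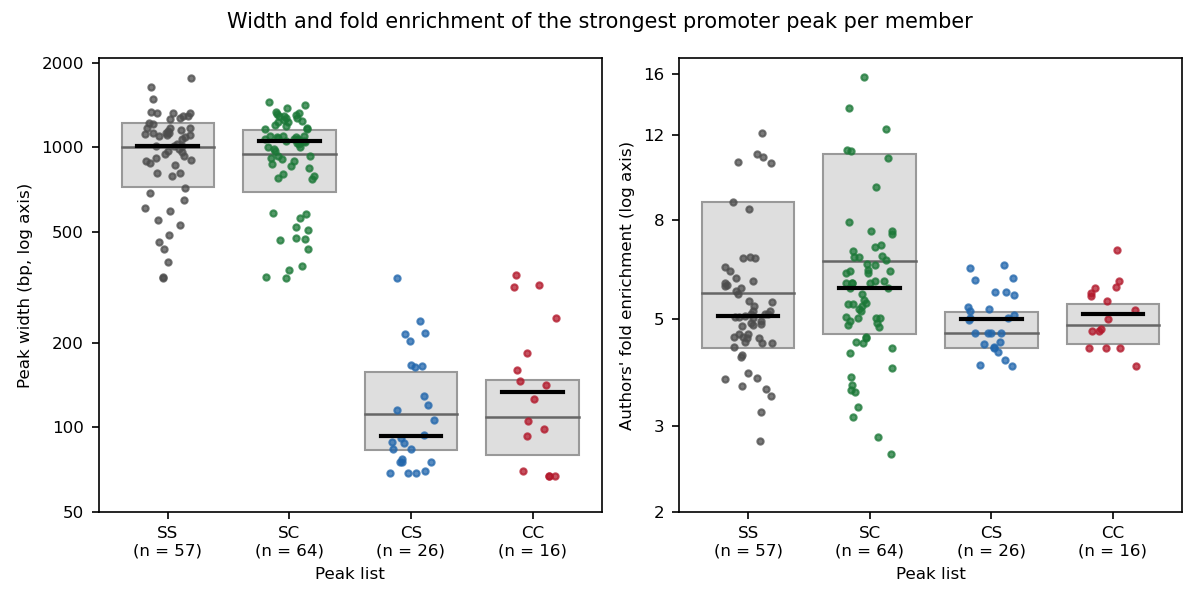
Width in bp (left, log axis) and the authors' fold enrichment (right, log axis) of the strongest promoter peak of each member, 1 point per gene, in each of the 4 lists. Black lines are member medians, and grey boxes give the quartiles of all promoter genes of the same list: the member medians lie near 1000 bp in SS and SC and near 100 bp in CS and CC.

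The authors' fold enrichment is used here to rank peaks within a list, since the 4 lists do not share a scale of fold. In SS the median member fold was 5.07, beside 5.65 over all promoter genes, and 19 of 57 members (33.3%, 21.4 to 47.1%) lay above the list's median. In SC it was 5.79, beside 6.59, with 18 of 64 members (28.1%, 17.6 to 40.8%) above. Both intervals lay below the 50% of all genes, so most member promoters ranked in the weaker part of the SS and SC lists. In CS the median was 5.00, beside 4.68, with 14 of 26 above, and in CC 5.11, beside 4.85, with 9 of 16 above.

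The strongest SS member peak was that of Mrps24 (fold enrichment 12.1), a small-subunit protein with a bacterial homologue, and it was also the strongest in SC (15.8). Next in SS came Mrps7 (10.9), Mrpl48 (10.8), Mrpl33 (10.5), Mrps30 (10.5), Mrps6 (8.72), Mrps35 (8.45), Mrps31 (6.70), Mrpl21 (6.68) and Mrpl15 (6.68). Of these 10 genes, Mrpl33, Mrpl48, Mrps6 and Mrps31 were named in CS and Mrpl48 in CC, though the CS and CC peaks of Mrpl48 lay at other starts of the gene. At Mrps24, whose promoter is printed above, the SS peak reached from 172 bp before to 797 bp after the RefSeq start, the SC peak from 170 bp before to 621 bp after it, and neither CS nor CC had a peak within 1000 bp. The weakest SS member was Mrpl34 (2.80), which was also the weakest in SC (2.63).

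Between SS and SC, peak widths of the same gene were close for most members. The SC width was 0.997 times that of the nearest SS peak of the same gene at the median of 54 members (range 0.214 to 3.36). For 44 of 54 (81.5%) it lay within 1.5-fold, beside 85.3% of all genes. The extremes were cases where a domain was split differently. At Mrpl1 a pair of SS peaks of 390 and 345 bp faced a single SC peak of 1160 bp. At Mrpl41 the 1764-bp SS peak faced an SC peak of 377 bp with a further SC peak of 1261 bp named Pnpla7 beside it. The ranks of member fold enrichments in SS and SC had a Spearman correlation of 0.565 over 54 members, against 0.894 over 11987 genes. The member range of folds is narrower than that of all genes, and the correlation across genes is given as a description.

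Several members had more than 1 promoter peak in a list. At Mrpl17, Mrpl38 and Mrps14 a pair of peaks flanked the start in both SS and SC. For Mrps14, the SS pair had middles 623 bp upstream and 195 bp downstream of their annotated starts, and the SC pair 621 bp upstream and 214 bp downstream, so the gap was placed alike in both lists. Its CC peak (99 bp) lay inside the upstream peak of the SS pair. Mrpl17 had the SS peak nearest to the limit of the window, with its middle 912 bp upstream, and the nearest peak outside it was one of Mrpl48, 1244 bp downstream. Mrpl45 had such a pair in SC and a single downstream peak in SS. Mrpl2 also had a pair in SC, and in SS its upstream counterpart, 608 bp wide, carried the name Klc4. At Mrpl33, Mrpl36, Mrpl48 and Mrps9 the extra peaks lay at other annotated starts of the gene. In SS, Mrpl33 had a strong peak at chr5:31613718-31614406 (fold enrichment 10.5) and a weaker one at an earlier start, at chr5:31596622-31597179 (3.97), and both of its CS peaks lay in the strong one. In CS, Mrpl11 and Mrpl20 each had a pair of narrow peaks inside their broad SS peak.

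Mrpl48 showed how the start site chosen matters. In SS and SC it had 3 promoter peaks, the strongest at the start printed above (fold 10.8 in SS and 11.2 in SC), which it shares with Rab6a. Its 3 CS peaks and 2 CC peaks all lay at internal annotated starts, between 16764 and 25403 bp downstream of the printed start. The strong SS peak was thus overlapped by no CS or CC peak, although the gene is counted in all 4 lists, and the nearest CS peak, at chr7:100607049-100607238, carried the name Rab6a and lay beyond its edge. In CC, Mrpl13 had 3 peaks and Mrps25 had 2, each at closely spaced annotated starts.

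The narrow peaks lay within the broad ones. Of 31 CS member peaks, 30 (96.8%, 83.3 to 99.9%) lay entirely inside an SS peak of any name, beside 93.9% of all CS promoter peaks, and the remaining one, at Mrpl48, overlapped one. Of 20 CC member peaks, 20 lay inside an SS peak (100%, 83.2 to 100%), beside 95.1%. The middles of the narrow peaks lay at varying distances from those of the broad ones. The distance between the middle of the CS peak and that of the nearest SS peak of the same gene had a median of 197 bp (42.5 to 425 bp, 24 members), and for CC it was 209 bp (5 to 571 bp, 15 members). The medians over all genes were 224 and 219 bp. Between SS and SC it was 61 bp for members and 48.5 bp for all genes.

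Among CS and CC peaks, the one farthest from its SS middle was the CC peak of Mrps28, 571 bp upstream of it. The CC peaks of Mrpl39 and Mrpl48 lay 456 and 455 bp upstream of theirs, and that of Mrpl11 lay 446.5 bp downstream. In CS, the peaks of Mrps6, Mrpl4, Mrps31 and Mrps36 lay 425, 406, 381.5 and 355.5 bp upstream. Over all members with both peaks, the CS middle lay upstream of the SS middle for 13 of 24 (54.2%, beside 55.4% of all genes) and the CC middle for 10 of 15 (66.7%, beside 53.6%).

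**Figure D3:**
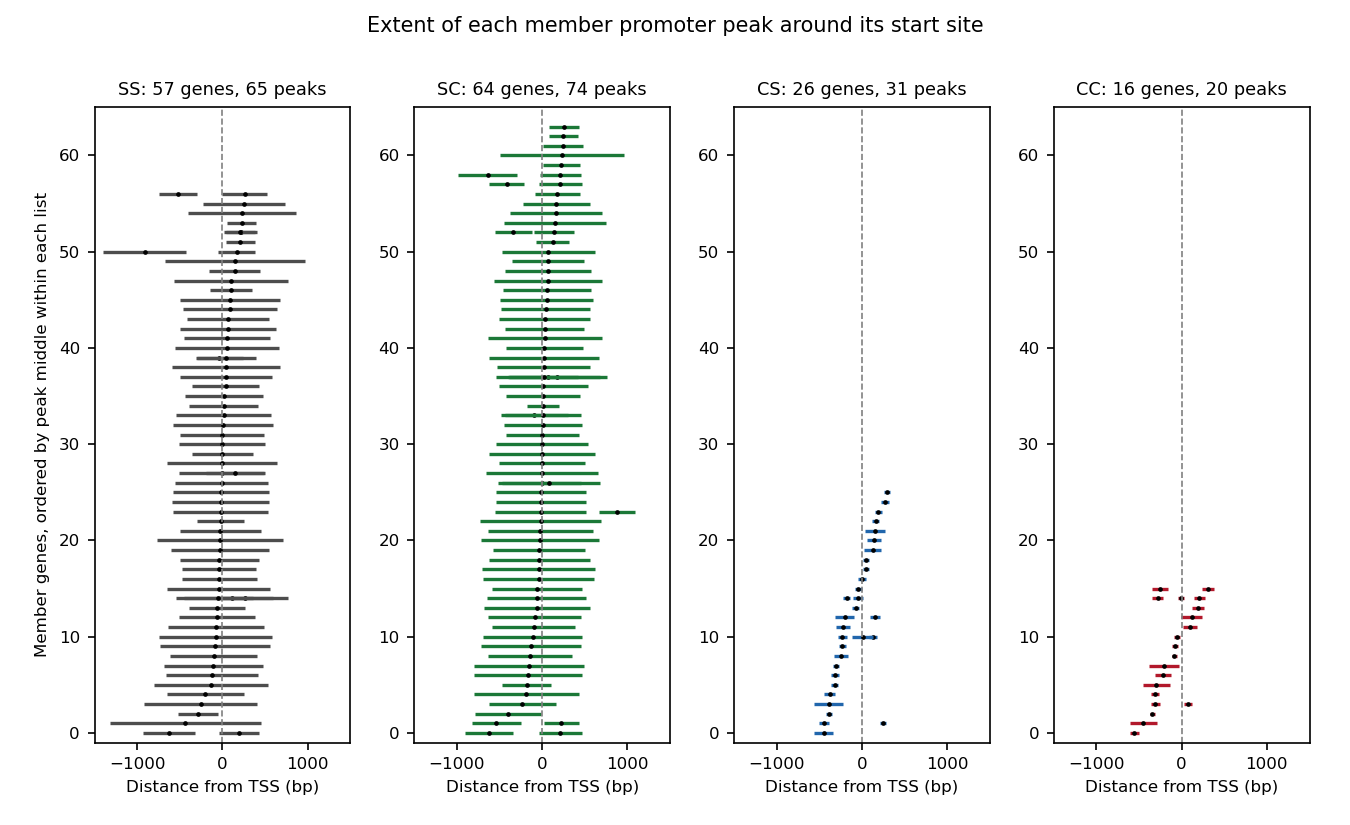
Extent of each member promoter peak (horizontal bars) and its middle (black dots) relative to the annotated start, in bp on the horizontal axis with upstream to the left, 1 row per gene ordered by position within each list. Bars in SS and SC reach across the start for most members, while bars in CS and CC are short and lie to either side, more of them upstream.

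Positions here are relative to the start the authors assigned to each peak. For members with a RefSeq start, it agreed within 200 bp for 40 of 50 in SS and 48 of 57 in SC, with differences of up to 2496 bp in each. In CS it did so for 18 of 24 and in CC for 11 of 14, with differences of up to 643 bp. Relative to the assigned start, broad member peaks were more centred than those of all promoter genes in SS, and only narrowly so in SC. The middle of the strongest SS peak lay within 100 bp of the start for 38 of 57 members (66.7%, 52.9 to 78.6%), beside 49.7% of all SS promoter genes, and in SC for 40 of 64 (62.5%, 49.5 to 74.3%), beside 49.4%. The median absolute distance was 61 bp in SS, where it was 102 bp over all genes, and 59 bp in SC, where it was 103 bp over all genes. In CS and CC the median distance was 226.5 and 215 bp, against 230 and 229 bp. By assigned starts, 13 of 26 CS members (50%, 29.9 to 70.1%) had the middle 200 to 500 bp upstream, beside 25.6% of all CS promoter genes. The choice of start can change the side: the CS peak of Mrpl39 lay 160 bp downstream of its assigned start but upstream of the RefSeq start. In CC 7 of 16 did (43.8%, 19.8 to 70.1%), beside 24.1%. The CS interval lay above the share over all genes and the CC interval contained it, and the upstream stretch was chosen after the positions had been seen. Mrpl20, Mrpl48, Mrps9, Mrps10 and Mrps22 had a middle there in both lists. The stretch over 100 and up to 300 bp downstream held 7 CS members (26.9%, beside 26.0%) and 3 CC members (18.8%, beside 28.8%).

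A peak reaching into the 250 bp on either side of the start was present for 76 of 78 family genes in SS and 75 in SC. It was present for 20 in CS (25.6%) and 9 in CC (11.5%). For the 9 family genes without a RefSeq window, the start was that of a peak assigned to them, so a nearby peak was given in advance. Over protein-coding genes, where every start came from RefSeq, these shares were 58.0%, 55.5%, 11.9% and 9.04%.

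The sites of narrow peaks were compared between CS and CC for the 12 members with both. Peaks of both lists overlapped for 9 of the 12 (75%, 42.8 to 94.5%), beside 59.8% of 1778 genes, and the nearest middles lay 66.25 bp apart at the median. The closest were those of Mrpl20 (8 bp), Mrps25 (19.5 bp) and Mrps22 (21 bp). Those of Mrpl57, Mrpl39 and Mrps36 did not overlap, with middles 102, 238 and 420 bp apart. At Mrps36 the CS peak lay upstream of its annotated start and the CC peak downstream. At Mrpl57, whose promoter is printed above, the CS peak ran from 208 to 278 bp and the CC peak from 106 to 176 bp after the RefSeq start, both past the end of the printed window and inside the SS peak.

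Members with a broad SS peak were more often present in CS, as were all genes. SS promoter genes were sorted by peak width into 5 classes of nearly equal size. From the narrowest class (321 to 654 bp) to the widest (1276 to 3493 bp), 0 of 11, 6 of 9, 3 of 12, 8 of 16 and 7 of 9 members also had a CS peak, beside 10.9%, 21.1%, 30.9%, 39.5% and 41.8% of all genes. The count of 0 of 11 allows a share of up to 28.5%. For CC the counts were 1 of 11, 2 of 9, 3 of 12, 6 of 16 and 3 of 9, beside 7.63%, 16.2%, 23.4%, 31.2% and 35.1%. The median SS width was 1134 bp for the 24 members also present in CS and 969 bp for the 33 that were not, against 1137 and 933 bp over all genes.

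**Figure D4:**
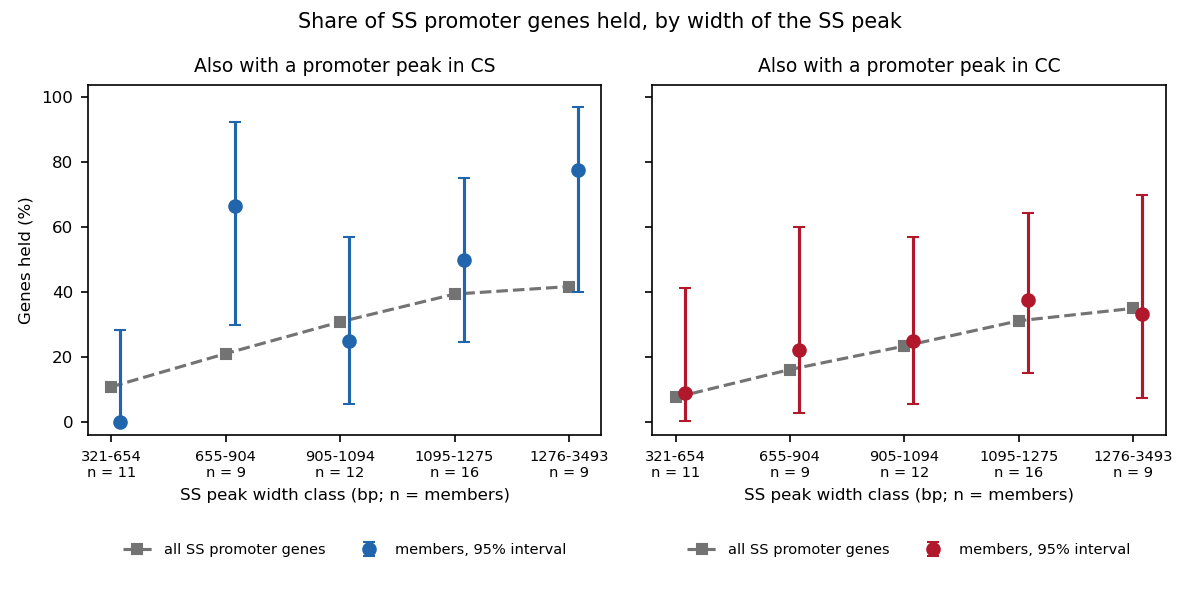
Share of genes with an SS promoter peak for which CS (left) or CC (right) held one too, in %, for 5 classes of SS peak width in bp. Coloured points are members with 95% exact binomial intervals (n under each class) and grey squares are all genes: the grey shares climb with width, and the member points scatter around them with wide intervals.

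Promoter sequence was read in the first RefSeq window of the 60 members that have one, beside 17492 protein-coding genes, counting a match on either strand. The ETS motif CCGGAAG was present in 22 member promoters (36.7%, 24.6 to 50.1%), against 11.9% of all. The NRF1 motif GCATGCGC, which carries the name of a regulator of nuclear genes for mitochondrial proteins, was present in 7 (11.7%, 4.82 to 22.6%), against 3.61%. The YY1 motif AAGATGG was present in 10 (16.7%, 8.29 to 28.5%), against 6.37%. For these 3 motifs the interval lay above the share over all promoters. All 60 members had a promoter peak in some list, while the 17492 genes were taken with or without a peak. Of those genes, 59.4% had a peak near the start in SS. A comparison with genes of like marking or CpG content was not made. The CCAAT box CCAAT (40%, against 39.0%) and the SP1 motif GGGCGG (43.3%, against 46.3%) were about as frequent as elsewhere, and the TATA box TATAAA was present in 3 (5%, 1.04 to 13.9%), against 13.3%. Member promoters held a median of 21 CpG dinucleotides in 300 bp, against 13, at a median GC content of 58%, against 56.3%.

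**Figure D5:**
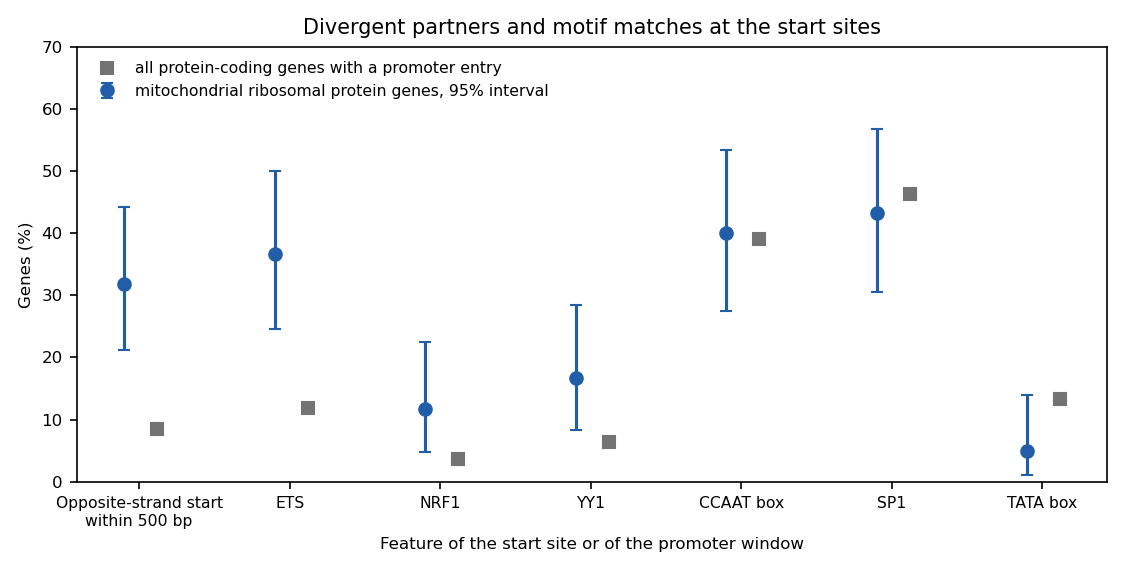
Share of genes, in %, with an opposite-strand start within 500 bp and with a match to each of 6 motifs in the promoter window. Blue points are mitochondrial ribosomal protein genes with 95% exact binomial intervals (69 genes for the first feature, 60 members for the motifs) and grey squares are protein-coding genes, with or without an H2A.Z peak: the first 4 features stand above the grey squares and the TATA box below.

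The motifs were also counted by presence in CS and in CC among the SS members with a promoter window. ETS and CCAAT are given first because their shares differed most in CS. Of 17 with an ETS match, 5 also had a CS peak (29.4%, 10.3 to 56.0%), and of 33 without one, 18 did (54.5%, 36.4 to 71.9%). With a CCAAT box the count was 12 of 20 (60%, 36.1 to 80.9%), and without one 11 of 30 (36.7%, 19.9 to 56.1%). The intervals overlap in both cases, so a difference was not resolved with these numbers of genes. They also overlapped for NRF1, YY1, SP1 and the TATA box in CS, and for every motif in CC. In CC, 0 of 8 with a YY1 match had a peak (0 to 36.9%), and 14 of 42 without one did (19.6 to 49.5%).

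Other genes of mitochondrial translation were read in the same way. Of 6 ribosome subunits with other names, 4 had a promoter peak in SS and SC, 0 in CS, and 1 in CC, Gadd45gip1. Of 22 factors of ribosome assembly, 14 had a peak in SS and 11 in CS, and 9 of the 14 (64.3%, beside 28.8% of all SS promoter genes) had both. In CC 7 of the 14 (50%) had one, beside 22.7%. The median SS width of these 14 was 1264 bp. Of all genes with SS peaks of 1095 to 1275 bp, 39.5% also had a CS peak and 31.2% a CC peak. With so few genes, and no interval taken, the assembly shares are given as counts only. A total of 6 assembly genes had peaks in all 4 lists: Eral1, a chaperone of the small-subunit RNA, Mtg1, Noa1 and Gtpbp10, GTPases of assembly, Mrm1, a methyltransferase of the large-subunit RNA, and Rbfa, a small-subunit assembly factor. Of 15 translation factors, 13 had a peak in SS, with 5 of those (38.5%) in CS and 6 (46.2%) in CC. Of 17 tRNA synthetases, 15 had one in SS, with 7 of those (46.7%) in CS and 3 (20%) in CC. Among 10 genes of mitochondrial DNA transcription and replication, 5 of the 8 with an SS peak (62.5%) had a CS peak and 1 (12.5%) a CC peak, that of Tfam. Tfam, which packages mitochondrial DNA, had a peak in all 4 lists. The median SS widths of the translation factors, tRNA synthetases and mitochondrial DNA genes were 1174, 1134 and 1222.5 bp, in the same width class.

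Set beside genes of the other ribosome and of the respiratory chain, the member shares were of similar size. SS promoter peaks were found at 64 cytosolic ribosomal protein genes, of which 58 (90.6%) had one in SC, 23 (35.9%) in CS and 14 (21.9%) in CC. Of 49 genes of the respiratory chain and ATP synthase, 48 (98.0%) also had one in SC, 14 (28.6%) in CS and 9 (18.4%) in CC. The member shares of 94.7%, 42.1% and 26.3% have intervals that contain each of these except the 28.6% for CS, which lies just below the interval.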

How the data were processed

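H2A.Z chromatin immunoprecipitation was read from 4 annotated peak lists, 1 per condition of 3 samples. Conditions were taken from the sample titles. The submitters' processing notes name cutadapt, HISAT, SAMtools, MACS2 and the mm10 build. Their versions and settings, the control, the depth per sample and any pooling of reads were not given in the sources used here. H3 data were not analysed. Per the file headers, the authors gave every peak a fold enrichment (a ratio) and a q-value (untransformed). They also deposited its assigned gene and a distance, which equalled the peak middle minus the TSS within 1 bp. All deposited peaks were used, and the strongest promoter peak by fold enrichment stood for a gene. For width ratios and displacements from SS, it was set against the nearest SS promoter peak of the gene. Positions are printed as the lists give them.

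Start sites and promoter windows came from RefSeq (GRCm38.p6): all 69 members matched by symbol, 60 had a promoter window, and 9 of 78 family genes without one took the authors' start. Overlap meant at least 1 shared bp. Tables were computed with pandas 2.3.3, intervals with scipy 1.17.1 and figures with matplotlib 3.10.9, and the counting was tested on simulated lists. The members and all gene lists were chosen with earlier results of these data known. Genes named are members in all 4 lists, members named in SS or SC but not both, or in CS or CC and not SS. They include the 10 strongest, 5 widest and 5 narrowest SS peaks and the 8 largest displacements of CS or CC peaks. Members with several peaks or near the window limit, and family genes without a named peak, are named too. Other genes were named after their values were seen. Alternatives were windows of 500 and 2000 bp, a −log10 q of at least 5, lists of equal length, overlap in place of names, and other choices of peak per gene.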

Additional observations from a re-analysis of the deposited data

How the results depend on the processing

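The 18 values (member counts, shares, widths and distances) were recomputed to give 110 alternative values, and 98 stayed within the spread or the factor of 1.5 allowed. With peaks of −log10 q of at least 5, CS held 8 members and CC 5. The share of SS members present was then 14.0% in CS (beside 4.37% of all genes) and 7.02% in CC (beside 3.57%). The share of SC members was 12.7% in CS (beside 4.50%) and 6.35% in CC (beside 3.67%), and 12.5% of CS members were present in CC (beside 17.1%). With each list limited to its 4827 strongest peaks, SS held 7 members among 4463 promoter genes and SC 6 among 4435. Of those 7, 71.4% were present in SC (beside 86.4%) and 14.3% in CC (beside 23.1%), and the median SC width was 848 bp (beside 961 bp). The other windows (all values), overlap in place of names (shares), other peak choices (widths and distances) and the reading of all start sites without names (counts and shares, added after seeing the data) moved no value they were run on beyond those limits. No paired analysis was possible because the lists carry no values per sample, and no replicate could be left out for the same reason. Counts of 16 to 64 genes per list limit how narrow the intervals can be.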

Other observations

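A few member genes also carried H2A.Z peaks beyond 1000 bp of a start, 13 in all, of which 5 were SS peaks, 6 SC peaks, 2 CS peaks and 0 CC peaks. Mrpl58, which encodes a ribosome-bound peptidyl-tRNA hydrolase, had gene-body peaks in 3 lists and none near its start in CS. On chromosome 11 they ran from 115413199 to 115413889 in SS (fold enrichment 5.29), from 115412925 to 115413905 in SC (5.38) and from 115413592 to 115413699 in CS (5.02). The SS and SC peaks there ranked above the peak at the start of the same gene, which had fold enrichments of 4.48 in SS and 4.47 in SC. Mrps27 had a gene-body peak of 533 bp in SS and 645 bp in SC at nearly the same place, 8149 and 8201 bp past an annotated start. Mrpl48 had one of 524 bp in SS and 1288 bp in SC, the latter wider than its strongest promoter peak of 804 bp.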
